A study of Saccharomyces cerevisiae with 4 samples.

Results

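RNA decay genes of the budding yeast Saccharomyces cerevisiae were followed in a strain mutated in both Xpo1 and Mex67 and in a wild-type strain. The 44 genes were taken by systematic name from the 7126 features of the deposited gene files. They encode the exosome and its cofactors, the TRAMP complex, the Nrd1-Nab3-Sen1 complex, Rat1 with Rai1, Xrn1, the decapping factors, the nonsense-mediated decay factors, the Ski complex and the deadenylases. By textbook location, 13 are nuclear factors, 10 are core exosome subunits that work in both compartments and 21 are cytoplasmic factors. Every one of the 44 matched its RefSeq symbol, and every one passed the filter on low counts, with at least 593 reads in each library.

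The samples were 2 libraries of xpo1-1 mex67-5 cells and 2 libraries of wild-type cells. Both strains grew overnight at 25 °C and were moved to 37 °C for 1 h, so the heat treatment was shared by the controls. Xpo1, encoded by CRM1, exports proteins and ribosomal subunits from the nucleus, and Mex67 is the main messenger RNA export receptor. The study set out to compare splicing in these strains. The labels give no strain background, and whether replicate libraries stem from separate cultures is not stated. The p-values therefore rest on the spread between libraries, part or all of which may be technical.

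RNA decay runs on different machines in each compartment. In the nucleus, TRAMP adds short poly(A) tails that mark faulty or unstable RNAs for the exosome, a ring of subunits that carries the nucleases Dis3 and, only in the nucleus, Rrp6. The Nrd1-Nab3-Sen1 complex ends short noncoding transcripts and hands them to the exosome, and Rat1 degrades RNA from its 5′ end. In the cytoplasm, deadenylases shorten the poly(A) tail, after which either Dcp2 removes the cap and Xrn1 degrades from the 5′ end, or the Ski complex feeds the RNA to the exosome from the 3′ end.

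Gene libraries held 62205252 and 50843634 reads in the mutant, against 49865570 and 49321384 in the wild type. MEX67 stood at 1903 and 1947 CPM (reads per 1000000 scaled reads) in the mutant libraries, against 152 and 156 CPM in the wild-type libraries, and CRM1 at 187 and 190 CPM against 217 and 220 CPM. A temperature-sensitive allele is still transcribed, so neither level checks the genotype. The strains also differed in markers of mating type, which the labels do not give. All 7 genes specific to a-cells were higher in the mutant, with summed levels of 486 and 478 CPM against 66.0 and 65.3 CPM in the wild type. All 4 genes specific to alpha-cells were lower, with 164 and 167 CPM in the mutant and 1728 and 1729 CPM in the wild type. Differences caused by the export mutations and other differences between the strains cannot be told apart here.

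The comparison asked how the messenger RNA of each decay factor differed between mutant and wild type at 37 °C. Core exosome subunits and most nuclear factors were low in the mutant, whereas cytoplasmic factors went in both directions. Of the 44 genes, 30 were lower and 10 higher at an adjusted p under 0.05 (edgeR quasi-likelihood test, Benjamini-Hochberg over all 6563 features tested), and 4 were not called. Calls were the rule in these libraries: 93.1% of all features tested were called, 46.3% lower and 46.8% higher, so a call by itself says little about the decay genes. By size, 16 of the genes fell and 5 rose at least 2-fold, 21 in all, where 53.3% of all features passed that size, 25.5% lower and 27.8% higher. The mutant and wild-type ranges were separate for all 44 genes, and for 96.4% of all features, 48% lower and 48.5% higher. The median log2 difference of the 44 genes was -0.56, against 0.01 over all features tested. CPM values are shares of a library, and a smaller share cannot be told apart from a change in how much messenger RNA each cell holds.

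**Figure D1:**
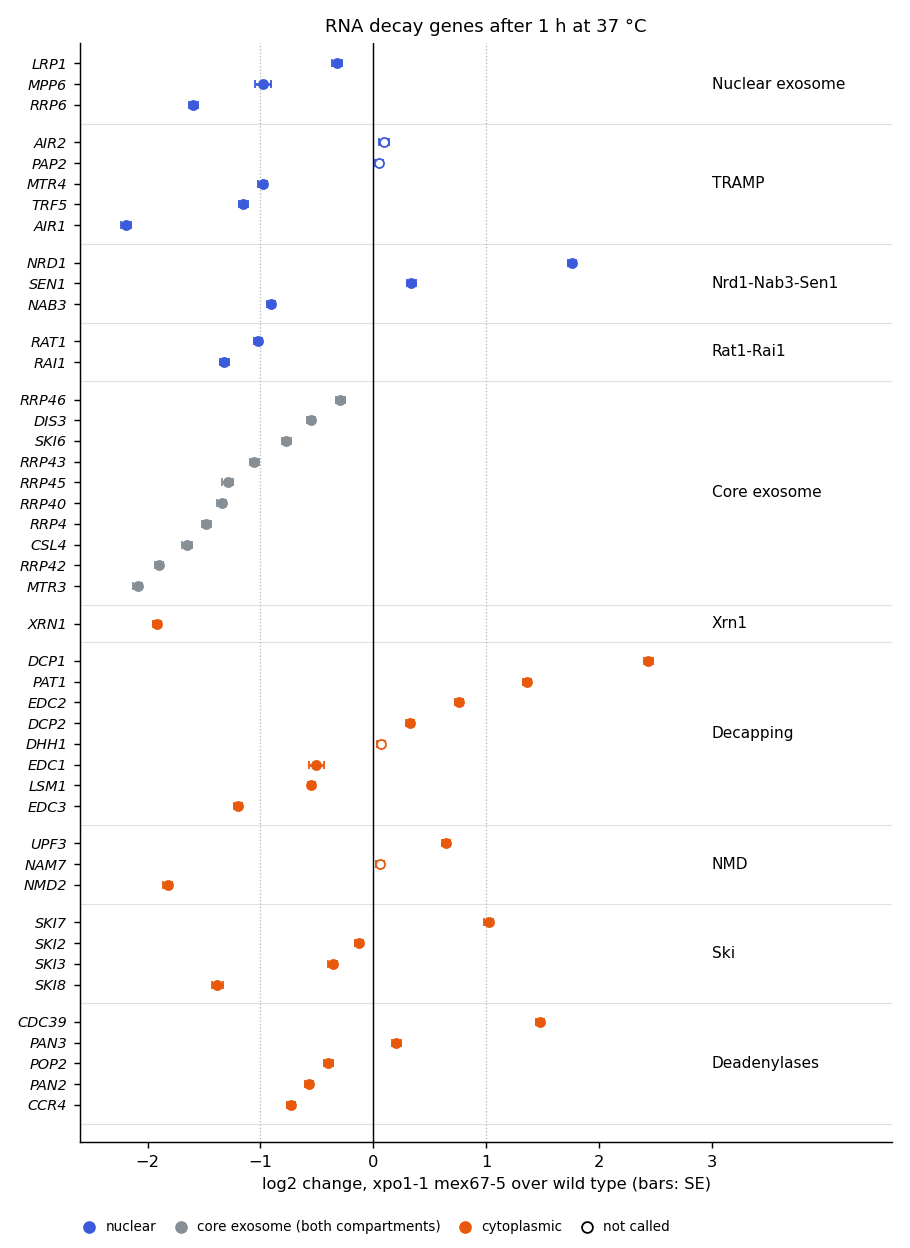
Log2 change of each of the 44 decay genes, xpo1-1 mex67-5 over wild type (2 libraries each), with SE bars, grouped by complex and coloured by compartment; open circles were not called and dotted lines mark a log2 change of 1 in either direction. All 10 core exosome genes lie left of 0, while decapping genes spread between -1.20 for EDC3 and 2.44 for DCP1.

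Nuclear and cytoplasmic factors differed in where their log2 differences lay. Among the 13 nuclear factors 9 fell, 2 rose and 2 were not called, with a median of -0.97. Among the 10 core exosome subunits all fell, with a median of -1.32. Among the 21 cytoplasmic factors 11 fell, 8 rose and 2 were not called, with a median of -0.13. The nuclear median was thus 0.85 lower on the log2 scale, a difference of -0.85 that describes these chosen genes and carries no test. The middle of the distribution ran from -1.15 to 0.05 (quartiles) for nuclear factors, from -0.57 to 0.65 for cytoplasmic factors and from -1.03 to 1.16 for all features tested. Cytoplasmic factors therefore lay close to the spread of all features, although over a narrower range between quartiles, and the core exosome lay low within it.

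**Figure D2:**
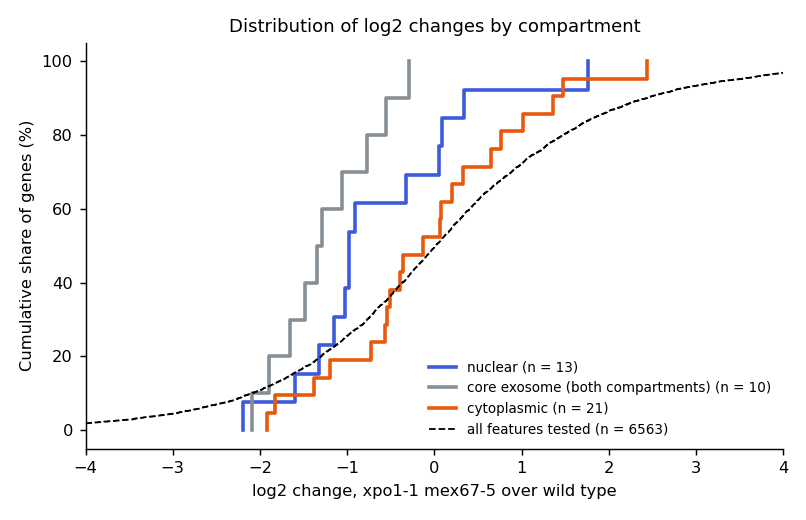
Cumulative share of genes (vertical axis, percent) against log2 change, xpo1-1 mex67-5 over wild type, for the 3 classes of decay genes and for all 6563 features tested (dashed). The curve of the core exosome reaches 100% at -0.29, before the cytoplasmic and nuclear curves, whose highest members are DCP1 at 2.44 and NRD1 at 1.76.

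Summed over members, the core exosome was lowest relative to wild type. Core exosome genes together gave 591 and 595 CPM in the mutant, against 1352 and 1301 CPM in the wild type, a ratio of 0.447. Nuclear factors gave 1410 CPM in both mutant libraries, against 1570 and 1544 CPM in the wild type, a ratio of 0.905. That nuclear sum depended on NRD1: without it the sums were 850 and 864 CPM in the mutant, against 1410 and 1378 CPM in the wild type. Cytoplasmic factors gave 3288 and 3287 CPM in the mutant, against 2685 and 2724 CPM in the wild type, a ratio of 1.22. The cytoplasmic sum depended on DCP1 and PAT1: without DCP1 the ratio was 1.08, and without both it was 0.928, with 2208 and 2198 CPM in the mutant, against 2355 and 2394 CPM in the wild type. Within a library, where scaling cancels, summed nuclear reads were 0.429 of summed cytoplasmic reads in both mutant libraries and 0.585 and 0.567 in the wild-type libraries. For the core exosome the same ratio was 0.180 and 0.181 in the mutant, against 0.503 and 0.478 in the wild type. In both ratios the libraries of each strain lay close together and the strains did not overlap. Separate ranges were also seen for 96.4% of all single features tested. Both ratios include DCP1 and PAT1, and the nuclear ratio includes NRD1. Without DCP1 and PAT1 the cytoplasmic sum stood at 0.928 of wild type, close to 0.905 for the nuclear sum. With NRD1 counted, the lower nuclear share in the mutant thus rested largely on DCP1 and PAT1. The core exosome sum, at 0.447, lay below both.

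The core exosome was low throughout but not to one degree. Its barrel is built of Rrp42, Rrp43, Rrp45, Rrp46, Mtr3 and Ski6 (also called Rrp41), capped by the RNA-binding subunits Rrp4, Rrp40 and Csl4, with the nuclease Dis3 below. MTR3 (YGR158C, chrVII:805269-806021) fell most, with 23.2 and 23.9 CPM in the mutant, against 102 and 98.0 CPM in the wild type, a log2 change of -2.09 (SE 0.04). RRP42 (YDL111C, chrIV:263313-264110) had 39.7 and 39.5 CPM in the mutant, against 147 and 148 CPM in the wild type, which is 3.73-fold lower. Both genes of the barrel were thus far below any wild-type value in each mutant library. RRP46 (YGR095C, chrVII:675671-676342), of the same barrel, changed least, with 72.5 and 68.3 CPM in the mutant, against 85.2 and 87.2 CPM in the wild type (log2 -0.29, SE 0.04). DIS3, the nuclease that also gives the exosome endonuclease activity, fell to 126 CPM in both mutant libraries, against 188 and 182 CPM in the wild type. The 3 cap genes fell more evenly, at log2 changes of -1.65 (CSL4), -1.48 (RRP4) and -1.34 (RRP40). The remaining barrel genes lay at -1.29 (RRP45), -1.05 (RRP43) and -0.77 (SKI6). The largest adjusted p among the 10 genes was 1.8e-06 (edgeR quasi-likelihood test, Benjamini-Hochberg).

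Messenger RNAs of the barrel, which holds its subunits in equal numbers, spread over a wider range in the mutant. Per kilobase of coding length, the 6 barrel genes ranged from 31.3 to 104.7 CPM per kb in the mutant, a ratio of highest to lowest of 3.35, and from 109 to 185 CPM per kb in the wild type, a ratio of 1.70. Over all 10 core genes the ratios were closer, 3.35 in the mutant and 3.01 in the wild type. RRP46 was the highest of the 6 in the mutant, at 104.7 ± 4.499 CPM per kb, against 128.3 ± 2.08 in the wild type (SD, n = 2 each). RRP42 was the highest of the 6 in the wild type, at 49.6 ± 0.184 CPM per kb in the mutant and 185 ± 1.08 in the wild type. These are levels of messenger RNA and not of protein.

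The nuclear cofactors of the exosome were low as well. RRP6 (YOR001W, chrXV:326832-329033), the nuclear exonuclease subunit, had 41.1 and 43.0 CPM in the mutant, against 126 and 127 CPM in the wild type, 3.02-fold lower. Its partner LRP1 (YHR081W, also called Rrp47), which binds and stabilises the Rrp6 protein, had 61.4 and 59.5 CPM in the mutant, against 78.9 and 72.1 CPM in the wild type (log2 -0.32, SE 0.04). MPP6, a small RNA-binding cofactor that links Mtr4 to the ring, had the lowest CPM of the nuclear members. It stood at 12.02 and 12.30 CPM in the mutant, against 25.3 and 22.5 CPM in the wild type. Per kilobase it was not the lowest: it had 21.7 CPM per kb in the mutant, above AIR1 at 16.6. In the wild type it had 42.6 CPM per kb, above SEN1 at 21.5. The ratio of LRP1 to RRP6 reads per kilobase was 5.92 and 5.49 in the mutant libraries and 2.48 and 2.25 in the wild-type libraries.

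In TRAMP, each of the paired subunits had one gene that fell and one that was not called. TRAMP holds the helicase Mtr4, one of the poly(A) polymerases Pap2 (also called Trf4) and Trf5, and one of the zinc-knuckle RNA-binding proteins Air1 and Air2. AIR1 (YIL079C, chrIX:210923-212005) had the largest fall of all 44 genes, with 18.2 and 17.8 CPM in the mutant, against 83.6 and 81.2 CPM in the wild type, 4.57-fold lower. Its paralog AIR2 (YDL175C, chrIV:144484-145518) had 47.4 and 48.1 CPM in the mutant, against 45.7 and 44.02 CPM in the wild type, a log2 difference of 0.09 (SE 0.04) that was not called (edgeR quasi-likelihood adjusted p = 0.055, Benjamini-Hochberg). The order of the paralogs was therefore turned round, with the ratio of AIR1 to AIR2 reads per kilobase at 0.367 and 0.354 in the mutant and at 1.75 and 1.76 in the wild type.

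The poly(A) polymerases showed the same kind of split. TRF5 (YNL299W, chrXIV:66517-68445) had 41.5 and 40.7 CPM in the mutant, against 91.5 and 91.3 CPM in the wild type, 2.22-fold lower. PAP2 (YOL115W, chrXV:101475-103229) had 105.4 and 104.8 CPM in the mutant, against 100.6 and 102.0 CPM in the wild type, which was not called (log2 0.05, SE 0.04; edgeR quasi-likelihood adjusted p = 0.16, Benjamini-Hochberg). MTR4, which all forms of TRAMP share, had 122 and 127 CPM in the mutant, against 250 and 241 CPM in the wild type. With Trf5 and Air1 genes low and those of Pap2 and Air2 uncalled, the ratio of PAP2 to TRF5 reads per kilobase was 2.79 and 2.83 in the mutant and 1.21 and 1.23 in the wild type.

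The promoters of these paralogs are shown because one of each pair holds a PAC element, a short motif bound by the repressors Dot6 and Tod6 and common in genes for ribosome assembly. Each line gives the 200 bases from 250 to 51 before the start codon, on the strand of the gene, read from the RefSeq genome of build R64, with PAC matches (GATGAG or its reverse complement) in capitals.
AIR1 (chrIX:212056-212255, minus strand): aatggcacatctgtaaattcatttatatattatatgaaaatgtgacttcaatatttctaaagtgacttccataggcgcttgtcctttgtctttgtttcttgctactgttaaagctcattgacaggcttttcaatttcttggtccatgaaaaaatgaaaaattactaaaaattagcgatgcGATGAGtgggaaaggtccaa
AIR2 (chrIV:145569-145768, minus strand): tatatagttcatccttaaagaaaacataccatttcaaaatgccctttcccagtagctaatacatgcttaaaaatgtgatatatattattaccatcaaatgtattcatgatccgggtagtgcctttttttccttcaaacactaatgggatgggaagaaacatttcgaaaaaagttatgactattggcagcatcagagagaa
TRF5 (chrXIV:66267-66466, plus strand): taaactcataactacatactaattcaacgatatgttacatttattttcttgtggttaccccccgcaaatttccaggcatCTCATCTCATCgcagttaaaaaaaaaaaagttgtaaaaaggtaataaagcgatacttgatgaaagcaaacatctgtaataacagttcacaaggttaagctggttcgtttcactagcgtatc
PAP2 (chrXV:101225-101424, plus strand): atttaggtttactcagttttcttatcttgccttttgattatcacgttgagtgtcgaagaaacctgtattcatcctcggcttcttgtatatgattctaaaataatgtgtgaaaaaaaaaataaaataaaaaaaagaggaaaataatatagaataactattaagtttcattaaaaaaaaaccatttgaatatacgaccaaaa
TRF5 holds a pair of overlapping matches and AIR1 holds a single match, while AIR2 and PAP2 hold none in the window.

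The same letters were searched on both strands of all members, in the window from 250 before to 50 after the start codon. Among the 23 nuclear and core exosome genes, 13 held a PAC match, and all 13 fell. Of the 10 without a match, 6 fell, and the others were NRD1 and SEN1, which rose, and PAP2 and AIR2, which were not called. All core exosome genes fell, 6 with a match and 4 without, so the contrast in calls lay in the nuclear factors alone. There, 7 of 7 with a match and 2 of 6 without fell. By median log2 change, core exosome genes lay at -1.41 with a match and -1.03 without. Nuclear factors lay at -1.02 with a match and 0.07 without. RRP42 (log2 -1.90) and RRP6 (log2 -1.59) were among the larger falls and held no match. By class, the match was present in 7 of 13 nuclear factors, 6 of 10 core exosome genes and 3 of 21 cytoplasmic factors, against 20.4% of 6001 protein-coding genes. Among cytoplasmic factors, CCR4 and SKI2 with a match fell and DHH1 was not called, and the median log2 change was -0.13 with a match and -0.15 without. Over all genes tested, 60.3% of those with a match and 47.3% of those without were lower in the mutant. A match is a description of the letters and does not show that a factor binds there, and the difference between the classes was not tested.

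The sites of all other nuclear and core exosome genes with a match follow, so that genes with large and small falls can be set side by side. They are on the strand of the gene, with PAC matches in capitals, and where a gene holds several, the one nearest the start codon was used.
RRP4 (chrVIII:234760-234789): tatggattgagcGATGAGgtgaaaaaaaaa
RRP40 (chrXV:55508-55537): atgcttcagcagCTCATCtccagcatttcg
CSL4 (chrXIV:214810-214839): gaattcactgatGATGAGcttatggtacgg
RRP43 (chrIII:193060-193089): gacaaattagacGATGAGtattgttacaca
MTR3 (chrVII:806195-806224): ttttcacGATGAGATGAGatcgctagatac
DIS3 (chrXV:285530-285559): taggcattttctCTCATCtcagaaaaattt
LRP1 (chrVIII:267394-267423): cagtttttcagcGATGAGctaaggcagatg
MPP6 (chrXIV:672342-672371): aaaagtagtagaGATGAGggccacttaaac
MTR4 (chrX:342371-342400): tcactttcttgcGATGAGatgcacatagta
RAT1 (chrXV:421727-421756): aaaaaaccaaacCTCATCgatgaacctatt
RAI1 (chrVII:38844-38873): atattaggaacaGATGAGgtctggtaatgt
Among these genes the log2 change ran from -2.09 (MTR3) and -1.65 (CSL4) to -0.55 (DIS3) and -0.32 (LRP1), so the same letters stood in promoters of genes that fell much and of genes that fell little.

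**Figure D3:**
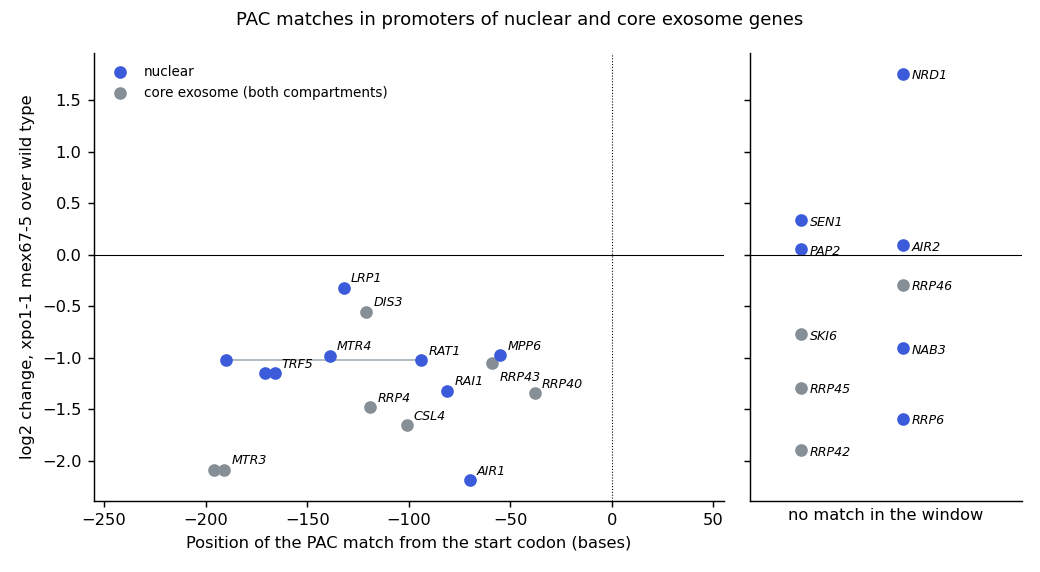
Log2 change, xpo1-1 mex67-5 over wild type, of the 23 nuclear and core exosome genes against the position of each PAC match from the start codon in bases (left; points of one gene with several matches are joined or adjacent) and of the genes without a match (right). All 13 genes with a match lie below 0, as do 6 of the 10 without, and the 4 genes above 0 (NRD1, SEN1, AIR2 and PAP2) hold none.

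Further motifs were searched in the same window. The second motif of ribosome assembly genes, RRPE (AAAAATTTT), was found in 3 of the 23 nuclear and core exosome genes and in 4 of 21 cytoplasmic factors, against 6.98% of all protein-coding genes. Across all protein-coding genes tested, the median log2 change was -1.40 with an RRPE match and -0.02 without. Decay genes showed no such difference, with medians of -0.57 with a match and -0.55 without, and 5 of the 7 with a match fell. The stress element AGGGG, which Msn2 and Msn4 bind, was found in 6 cytoplasmic factors, 1 core exosome gene and 0 nuclear factors, against 21.6% of all genes. Of these 6, LSM1 fell and EDC2, PAT1, UPF3, CDC39 and PAN3 rose, while the core exosome gene, DIS3, fell. All protein-coding genes tested had a median log2 change of 0.26 with the stress element and -0.20 without. The heat shock element core TTCNNGAA was found in the windows of 4 of the 44 genes, against 12.9% of all genes. Those 4 genes, CSL4, RRP45, LRP1 and RAI1, all fell. They belong to the 23 nuclear and core exosome genes, of which 19 fell, so their falls say little about the motif. For this core the medians over all protein-coding genes tested were close, at -0.12 with a match and -0.09 without. Matches of different motifs were counted without regard to overlap. Matches after the start codon were counted too: RRPE in XRN1, the stress element in UPF3 and the heat shock element core in CSL4.

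The Nrd1-Nab3-Sen1 complex held the one large rise among nuclear factors. NRD1 (YNL251C, chrXIV:172588-174315), which binds RNA and the polymerase tail and is known to limit its own messenger RNA by early termination, had 559 and 545 CPM in the mutant, against 161 and 165 CPM in the wild type. Both mutant libraries were thus well above both wild-type libraries, a 3.39-fold rise (log2 1.76, SE 0.04; edgeR quasi-likelihood adjusted p = 7.1e-18, Benjamini-Hochberg). SEN1, the helicase that pulls the polymerase off, rose to 179 and 185 CPM in the mutant, against 149 and 139 CPM in the wild type. NAB3, the RNA-binding partner of Nrd1, fell to 110 and 111 CPM in the mutant, against 205 and 210 CPM in the wild type. The ratio of NRD1 to NAB3 reads per kilobase was 7.08 and 6.84 in the mutant, against 1.10 in both wild-type libraries, the largest shift of any pair compared.

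Both exonucleases that work from the 5′ end were low. RAT1 (YOR048C), the nuclear enzyme, had 69.7 and 71.9 CPM in the mutant, against 145 and 142 CPM in the wild type. RAI1, its activating partner, fell to 42.4 and 43.5 CPM in the mutant, against 108.9 and 105.3 CPM in the wild type. XRN1 (YGL173C, chrVII:175527-180113), the cytoplasmic enzyme, had 77.1 and 76.6 CPM in the mutant, against 287 and 293 CPM in the wild type, the largest fall among the 21 cytoplasmic factors. The ratio of RAT1 to XRN1 reads per kilobase was 1.37 and 1.43 in the mutant and 0.769 and 0.738 in the wild type, so the nuclear enzyme had the higher messenger level per length in the mutant and the lower one in the wild type.

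**Figure D4:**
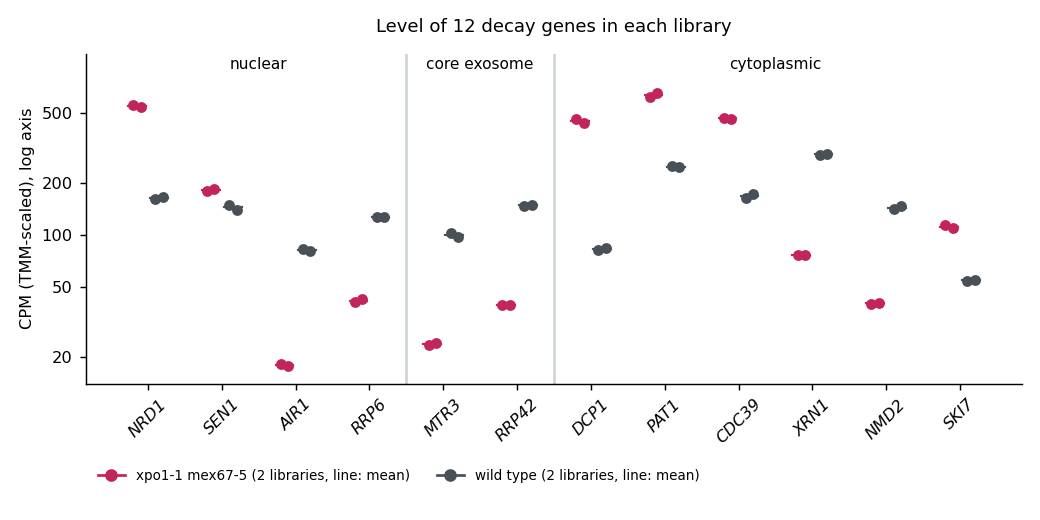
Level of 12 decay genes in each library, in CPM on a log axis, with xpo1-1 mex67-5 to the left of wild type for each gene; each point is a library and each short line a mean of 2. DCP1 lies at 461 and 440 CPM in the mutant and at 82.4 and 83.9 CPM in the wild type. No gene shown has overlapping groups, which also holds for 96.4% of all features tested.

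Upstream of Xrn1, the decapping factors were split, with 4 genes higher, 3 lower and 1 not called. All features tested were split in a similar way, 46.8% higher and 46.3% lower, so the counts alone do not set these genes apart. DCP1 (YOL149W, chrXV:44938-45633), the activating subunit of the decapping enzyme, had 461 and 440 CPM in the mutant, against 82.4 and 83.9 CPM in the wild type, a 5.42-fold rise and the largest of the 44 genes (log2 2.44, SE 0.04; edgeR quasi-likelihood adjusted p = 1.5e-19, Benjamini-Hochberg). DCP2 (YNL118C), the catalytic subunit, rose less, to 219 and 220 CPM in the mutant, against 172 and 179 CPM in the wild type. The ratio of DCP1 to DCP2 reads per kilobase was 8.80 and 8.36 in the mutant, against 2.01 and 1.97 in the wild type. The neighbours of DCP1 rose as well: GRE2, which ends 215 bases upstream on the same strand, had a log2 change of 3.55, and SPT20, 126 bases downstream on the other strand, 1.98. Other members had neighbours that changed with them or against them. NSR1, upstream of MTR3, had a log2 change of -3.15, and KSP1, downstream of LRP1, had 2.51. Strand was not marked in these libraries, and whether reads of neighbours bear on DCP1 or on any other member was not tested.

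PAT1 and LSM1 encode partners that bind shortened tails and recruit the decapping enzyme, and they went opposite ways. PAT1 (YCR077C, chrIII:250238-252628) had 620 and 649 CPM in the mutant, against 247 and 246 CPM in the wild type, a 2.57-fold rise. LSM1 (YJL124C) had 99.7 and 99.6 CPM in the mutant, against 146 and 145 CPM in the wild type, which is 1.46-fold lower. DHH1, the helicase that represses translation and promotes decapping, had 80.6 and 79.7 CPM in the mutant, against 77.4 and 75.3 CPM in the wild type, and was not called (edgeR quasi-likelihood adjusted p = 0.074, Benjamini-Hochberg).

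Of the enhancers of decapping, EDC3 and EDC1 fell, by different amounts, and EDC2 rose. EDC3, a scaffold of processing bodies, fell to 64.6 and 61.2 CPM in the mutant, against 144 and 146 CPM in the wild type. EDC1 and EDC2 encode small related activators of the decapping enzyme. EDC1 fell to 12.7 and 11.7 CPM in the mutant, against 17.1 and 17.6 CPM in the wild type. EDC2 rose to 131 and 128 CPM in the mutant, against 74.8 and 78.2 CPM in the wild type.

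Nonsense-mediated decay had one gene in each direction and one not called. NMD2 (YHR077C, also called Upf2, chrVIII:252374-255756), the bridging factor, had 40.2 and 40.8 CPM in the mutant, against 140 and 146 CPM in the wild type, 3.54-fold lower. UPF3 (YGR072W) had 89.4 and 87.8 CPM in the mutant, against 56.9 and 56.4 CPM in the wild type, a 1.56-fold rise. NAM7 (YMR080C, also called Upf1), the helicase of the pathway, had 185 and 187 CPM in the mutant, against 177 and 180 CPM in the wild type, and was not called (edgeR quasi-likelihood adjusted p = 0.098, Benjamini-Hochberg). NMD2 is the single member with a record in the intron files, and it had 0 intron reads in all 4 libraries, as did all 21 records on its chromosome, which were treated as not counted.

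In the Ski complex, SKI8 fell and SKI7 rose. SKI8 (YGL213C), a scaffold protein that also acts in meiotic recombination, had 22.7 and 22.2 CPM in the mutant, against 57.0 and 60.3 CPM in the wild type. SKI7 (YOR076C), the adaptor that joins the complex to the exosome, had 113.5 and 109.3 CPM in the mutant, against 54.5 and 55.3 CPM in the wild type, a log2 change of 1.02 (SE 0.04). SKI3, the large scaffold, fell to 71.0 and 69.1 CPM in the mutant, against 89.6 and 90.5 CPM in the wild type. SKI2, the helicase, had 101 and 107 CPM in the mutant, against 112 and 115 CPM in the wild type, the smallest called change of the 44 genes (log2 -0.13; edgeR quasi-likelihood adjusted p = 0.0048, Benjamini-Hochberg). The SKI2 call was lost without mutant replicate 1 (log2 -0.09, edgeR quasi-likelihood adjusted p = 0.068, Benjamini-Hochberg) and with upper-quartile scaling (log2 -0.03, edgeR quasi-likelihood adjusted p = 0.52, Benjamini-Hochberg).

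Of the deadenylase genes, CDC39 stood apart from the nucleases. CDC39 (YCR093W, also called Not1, chrIII:280117-286443), the scaffold of the Ccr4-Not complex, had 469 and 464 CPM in the mutant, against 163 and 172 CPM in the wild type, a 2.78-fold rise. CCR4, the main deadenylase, fell to 135 and 138 CPM in the mutant, against 229 and 223 CPM in the wild type. POP2, the other nuclease of the complex, fell to 115 and 118 CPM in the mutant, against 153 and 154 CPM in the wild type. PAN2, the nuclease of the second deadenylase, fell to 82.1 and 81.7 CPM in the mutant, against 120 and 123 CPM in the wild type, while its regulatory partner PAN3 rose to 97.9 and 95.2 CPM in the mutant, against 83.1 and 84.5 CPM in the wild type.

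Partner genes were also set against each other within each library, which removes any effect of scaling between libraries. In all 14 pairs compared, the 2 mutant ratios lay outside the range of the 2 wild-type ratios, and 9 pairs differed by at least 1 on the log2 scale. Since 96.4% of all single features had separate ranges and 53.3% changed at least 2-fold, these counts say little about partners as such. With 2 libraries against 2, the smallest p an exact permutation test can give is 0.3333, so that test cannot pass 0.05 in this design, and the ratios are given as values. The largest differences were 2.67 (NRD1 over NAB3), -2.28 (AIR1 over AIR2) and 2.11 (DCP1 over DCP2) on the log2 scale. The smallest were -0.29 (RAI1 over RAT1) and -0.33 (CCR4 over POP2), pairs whose members fell together. The helicases of the cytoplasmic and nuclear exosome pathways, SKI2 and MTR4, had a ratio of 0.694 and 0.703 in the mutant, against 0.375 and 0.399 in the wild type.

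**Figure D5:**
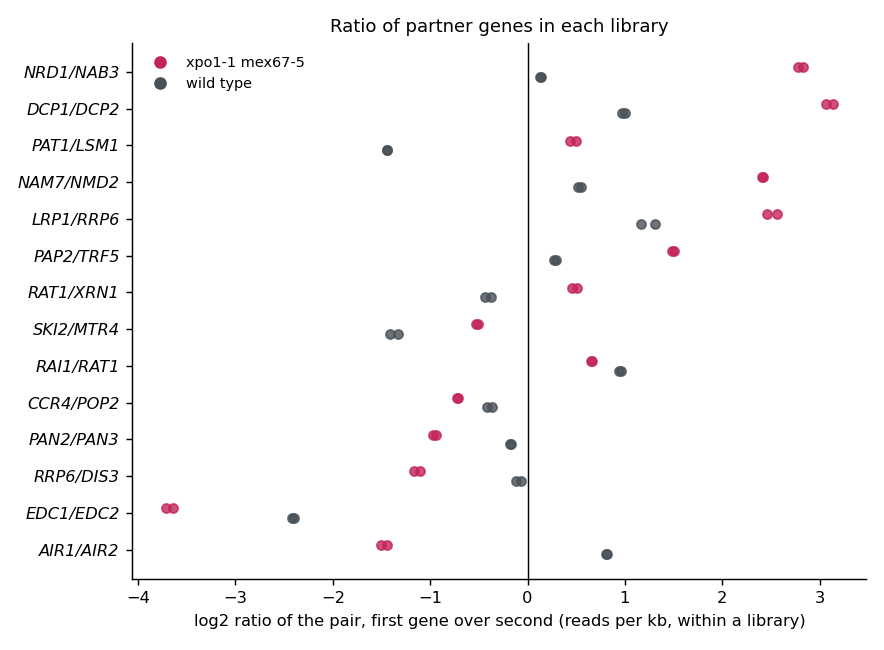
Log2 ratio of reads per kilobase of 14 pairs of partner genes in each library (points), with xpo1-1 mex67-5 above wild type within each pair; pairs are ordered by the difference between strains. NRD1 over NAB3 is at the top, with a difference of 2.67, and AIR1 over AIR2 at the bottom, with -2.28.

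Further genes of these pathways were taken from a list of 37 that holds none of the 44. Of these, 19 fell, 17 rose and 1 was not called, and the median log2 difference was -0.21. The nuclear genes of the list (11) fell in 6 and rose in 5, and the cytoplasmic ones (26) fell in 13 and rose in 12. With 46.3% of all features tested lower and 46.8% higher, these counts lie near the background and say little about the pathways. The medians were -0.33 for nuclear and -0.19 for cytoplasmic genes, a difference of -0.14. The cytoplasmic median rested on LSM2 to LSM7, whose products also work in the nucleus: without these 6, as chosen after seeing the data, the other 20 cytoplasmic genes rose in 12 and fell in 7, with a median of 0.45 and a difference of -0.78.

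Of the 6 remaining subunits of the Ccr4-Not complex, 4 rose and 2 fell, with 1 in each direction changed at least 2-fold. With 46.8% of all features tested higher and 46.3% lower, such small counts say little about the complex. MOT2 (also called Not4), its ubiquitin ligase, had 685 and 705 CPM in the mutant, against 105 and 109 CPM in the wild type, a 6.50-fold rise that exceeded those of all 44 genes. NOT3, CAF40 and CAF130 rose by 0.89, 0.51 and 0.46 on the log2 scale, while CDC36 (also called Not2) fell 2.83-fold and NOT5 1.16-fold. Of all 9 genes of the complex measured, 5 rose and 4 fell, and their summed level was 2042 and 2059 CPM in the mutant, against 1156 and 1165 CPM in the wild type. MOT2 and CDC39 made up this difference: the other 7 genes summed to 887 and 889 CPM in the mutant, against 888 and 885 CPM in the wild type.

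The genes of the cytoplasmic Lsm ring fell, by very different amounts. Lsm1 works in a ring with Lsm2 to Lsm7 that binds the tail end of messenger RNAs before decapping, and Lsm2 to Lsm7 also bind U6 in the nucleus. All 7 of these genes fell, and their median change was -2.04 on the log2 scale. LSM5 had 2.37 and 2.80 CPM in the mutant, against 16.1 CPM in both wild-type libraries, and LSM4 changed least, with a log2 change of -0.18. LSM2 (chrII:170623-171038) fell to 18.0 and 15.6 CPM in the mutant, against 84.1 and 83.5 CPM in the wild type. Its intron is the only one among the members and further genes with reads counted, at 94.4 and 82.1 reads per 1000 gene reads in the mutant libraries and 62.1 and 70.0 in the wild-type libraries (107 and 65 intron reads against 259 and 288).

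Among the other genes of the list, the largest falls were in RNT1, LSM5 and DOM34. RNT1, the nuclear enzyme that cuts double-stranded RNA, had 10.8 and 9.22 CPM in the mutant, against 88.6 and 85.2 CPM in the wild type, 8.64-fold lower. DOM34, which releases stalled ribosomes, had 14.7 and 12.4 CPM in the mutant, against 77.7 and 76.4 CPM in the wild type. The largest rises apart from MOT2 were in LSM8 and DCS2. DCS2, a stress-induced relative of the scavenger decapping enzyme Dcs1, had 320 and 326 CPM in the mutant, against 44.8 and 45.7 CPM in the wild type. LSM8, which replaces Lsm1 in the nuclear ring, had 32 and 31 reads in the mutant, against 0 and 4 in the wild type, which are too few reads for a firm estimate of size. TIS11, an RNA-binding protein of iron regulation, was the gene not called, with 24.40 and 24.37 CPM in the mutant and 79.6 and 46.6 CPM in the wild type (edgeR quasi-likelihood adjusted p = 0.067, Benjamini-Hochberg).

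Overlaps, distances and lengths were also examined. None of the 44 genes overlapped another gene of the RefSeq annotation, but only 6079 of the 7126 features have a match there, and overlaps with the rest were not tested. Among annotated genes, the median distance to a neighbour was 294.5 bases. Across the 44 genes, the Pearson correlation of log2 coding length with log2 change was 0.13, and across 5841 protein-coding genes it was 0.04. Genes within a library share its depth and are not independent replicates.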

How the data were processed

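Per the labels' protocols, libraries were made from polyadenylated RNA with a kit that keeps no strand. What the authors deposited are raw counts for each gene and each intron. Their tools, according to the submitters' processing notes, included STAR 2.5, featureCounts, bcl2fastq 2.17 and DESeq2 1.8.2, with build R64, but no roles are stated. How reads of overlapping features were assigned is unknown here.

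Gene counts were tested across all features by the edgeR package, version 4.0.16, under R 4.3.3, after filterByExpr and with TMM scaling, using robust quasi-likelihood F-tests on group alone, two-sided, Benjamini-Hochberg adjustment at 0.05. Depth ran from 49321384 to 62205252 reads, and replicates differed by more than counting error (chi-square over degrees of freedom 7.15 in the mutant and 10.6 in the wild type), so each library counted as 1 sample. Lengths, coordinates and promoters came from the RefSeq annotation and genome of build R64; lengths are of the coding region, with the intron in NMD2. In simulated counts (6563 genes, 200 changed), 88% of genes changed 1.2-fold and 94% changed 1.5-fold were recovered, with 9 false calls. In the real libraries 93.1% of features were called, far more than were changed in the simulation. The simulation therefore checks the procedure and does not give the error rate of these data.

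The 44 members and the list of 37 further genes were chosen with earlier results of these data known. All members could be named; of the further genes, the 3 largest rises and falls and those of the Ccr4-Not and Lsm complexes. Alternatives were other scalings and filters, DESeq2 1.42.0, a replicate block, size thresholds, other class borders and leaving out each library. Figures were drawn with matplotlib 3.10.9.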

Additional observations from a re-analysis of the deposited data

How the results depend on the processing

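Requiring a log2 change of at least 1 in addition to the adjusted p left 1823 features higher and 1675 lower, 5 higher and 16 lower among the 44 decay genes, 7 and 10 among the 37 further genes, 1 and 5 among nuclear factors, and 4 and 4 among cytoplasmic factors. Testing against a log2 change of 0.5 (glmTreat) left 1 nuclear factor and 10 further genes higher and 7 cytoplasmic factors lower. Upper-quartile scaling, which moved the median of all features by 0.10, and a filter at 1 CPM each gave 4 nuclear factors higher, since PAP2 and AIR2 were then called, as were DHH1 and NAM7. AIR2 was also called with total count scaling. The core exosome kept 10 genes lower in every setting without a size threshold. Counting the core exosome as nuclear gave 19 nuclear genes lower and a nuclear minus cytoplasmic median of -0.90, and leaving out the deadenylases gave -0.94. Among the 37 further genes the same difference was -0.14, and -0.78 without LSM2 to LSM7, an alternative chosen after seeing the data. For the 44 genes, leaving out each library in turn gave -0.90 to -0.78. Of 484 values of single members under the alternatives, 473 kept direction and call, 9 gained a call, 2 lost it (both SKI2) and 0 changed direction.

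Same-numbered libraries did not deviate together (correlation -0.037 over genes). This value gave no sign that the numbers pair the samples, but it cannot exclude a shared culture or preparation. With the replicate number as a block, 3075 features were higher and 3034 lower, and of the 44 genes 10 were higher and 30 lower; the nuclear minus cytoplasmic median was -0.85. With 2 libraries a group, the precision of each value rests on 4 libraries and on a spread shared across genes.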
